A study of Mus musculus with 15 samples.

Results

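The atrial chamber genes were Sln, Myl4, Myl7, Nppa and Bmp10, 5 of the 17447 genes counted in mouse heart by RNA-seq. They are genes known to be expressed mainly in the atria. They were chosen by their counts in these libraries, as a read-out of how much atrial tissue a heart sample held and of how much that varied between the hearts of a group. Their levels and differences are therefore given as a description, with no test. Of the 5 genes, 4 passed the filter on low counts and Bmp10 did not.

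Hearts of 15 male C57BL/6J mice, 3 in each of 5 groups, were collected 18 weeks after surgery, and the mice were 6 to 8 weeks old when the experiment began. WTSHAM mice were wild type and had a sham operation, and their labels name no vector. WTCKD mice were wild type, lost most of their kidney tissue by nephrectomy, which gives chronic kidney disease (CKD), and received the vector without renalase in week 2. WTCKD + RNLS mice were wild type with CKD and received AAV9-cTnT-RNLS in its place, an adeno-associated virus that expresses renalase (RNLS) from the cardiac troponin T promoter, which is active in cardiomyocytes. KOCKD and KOCKD + RNLS mice carried rnls-/-, a knockout made by gene targeting at exon 4, had CKD and received the vector or the virus. All knockout mice had CKD. Nothing in the labels says which chambers of the heart went into a sample.

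The atria and the ventricles of the heart contract with different sets of sarcomere proteins. Atrial cardiomyocytes use the light chains MYL4 and MYL7, where ventricular cardiomyocytes use MYL3 and MYL2. They restrain the calcium pump SERCA2 with sarcolipin, encoded by Sln, and phospholamban, while ventricular cardiomyocytes have phospholamban almost alone. They also secrete atrial natriuretic peptide, encoded by Nppa, and in the adult BMP10, a ligand of endothelial receptors made chiefly in the right atrium. Ventricular cardiomyocytes switch Nppa on again under load, so of the 5 genes it is the one that is least tied to the atria.

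On the mm9 genome in the GENCODE M1 annotation, all 5 are protein-coding genes. Sln (ENSMUSG00000042045) lies on chromosome 9 from 53698058 to 53701651, Bmp10 (ENSMUSG00000030046) on chromosome 6 from 87378996 to 87384506 and Nppa (ENSMUSG00000041616) on chromosome 4 from 147374831 to 147376188, each on the plus strand. Myl4 (ENSMUSG00000061086) and Myl7 (ENSMUSG00000020469) share chromosome 11 but lie far apart, from 104411977 to 104457067 on the plus strand and from 5796640 to 5798785 on the minus strand. Of the 865 exon bases of Nppa, 532 are shared with an antisense gene, Gm13054. Whether reads were counted by strand was not stated, so reads of these 2 genes may not be told apart. The exons of Myl4 share 3 bases with antisense genes, and those of Sln, Myl7 and Bmp10 share none.

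The 250 bases before the RefSeq gene start (GRCm38.p6) are shown for the members found in the RefSeq promoter table, 4 of 5, because 3 of them, Myl4, Myl7 and Nppa, moved together over the libraries, with Bmp10 beside them. Capitals mark the matches to 6 motifs of cardiac regulators, searched on both strands. The windows are chr11:104550413-104550662 on the plus strand for Myl4, chr11:5898783-5899032 on the minus strand for Myl7, chr4:148000472-148000721 on the plus strand for Nppa and chr6:87428744-87428993 on the plus strand for Bmp10.
Myl4: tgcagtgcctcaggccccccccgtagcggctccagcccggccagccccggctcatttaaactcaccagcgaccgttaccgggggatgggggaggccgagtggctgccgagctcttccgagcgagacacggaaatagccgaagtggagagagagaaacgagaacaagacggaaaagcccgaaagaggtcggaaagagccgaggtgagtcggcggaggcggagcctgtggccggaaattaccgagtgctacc
Myl7: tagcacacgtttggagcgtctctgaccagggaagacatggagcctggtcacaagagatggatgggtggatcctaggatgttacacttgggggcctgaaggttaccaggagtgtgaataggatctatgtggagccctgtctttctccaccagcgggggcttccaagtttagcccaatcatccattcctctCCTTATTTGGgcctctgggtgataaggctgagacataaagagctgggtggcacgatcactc
Nppa: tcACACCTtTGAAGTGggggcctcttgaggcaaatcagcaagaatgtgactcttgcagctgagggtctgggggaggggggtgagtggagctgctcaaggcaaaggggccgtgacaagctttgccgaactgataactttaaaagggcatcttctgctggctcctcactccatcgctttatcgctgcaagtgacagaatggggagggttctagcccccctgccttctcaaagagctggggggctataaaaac
Bmp10: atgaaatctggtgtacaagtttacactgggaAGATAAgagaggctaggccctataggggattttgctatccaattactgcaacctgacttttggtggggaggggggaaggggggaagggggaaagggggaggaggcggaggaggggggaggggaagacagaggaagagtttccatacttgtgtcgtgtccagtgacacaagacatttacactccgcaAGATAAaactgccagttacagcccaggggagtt

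The 4 windows did not share a motif. The window of Myl7 held a CArG box, the motif of serum response factor, 61 to 52 bases before the start, as did 1.47% of the 32851 promoters in the table. The window of Nppa held AGGTGT, a motif of T-box factors, on the reverse strand at 248 to 243 bases (11.8% of promoters) and TNAAGTG, a motif of NKX2-5, at 241 to 235 bases (10.1%). The window of Bmp10 held AGATAA, a motif of GATA factors, at 219 to 214 and at 33 to 28 bases (9.99%). The window of Myl4 held none of the 6. The MEF2 motif (3.2%) and AGGTCA, a motif of nuclear receptors (14%), were found in none of the 4 windows. No match overlapped another. A match is a run of letters and not evidence of binding.

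Counted reads per library ran from 10480788 to 13424078, with a median of 12011453. Levels are given as CPM, counts scaled to the library's size, after TMM scaling, in the order of replicates 1, 2 and 3. At these depths 3 counts correspond to 0.223 to 0.286 CPM, and lower values are near the limit of detection. This limit covers counting error only. No libraries of a group were alike within counting noise. The defining genes of cardiomyocytes were high in every library, with Myh6, the main myosin heavy chain of mouse heart, at 30124 to 46319 CPM. Rnls itself was not analysed here, so genotype and virus rest on the labels.

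Myl7, the atrial regulatory light chain, varied widely within groups as well as between them. It was at 12.8, 77.5 and 310.3 CPM in WTSHAM, and at 419.6, 478 and 1.28 CPM in WTCKD. It was at 7.17, 0.835 and 113 CPM in WTCKD + RNLS, and at 53.1, 4.84 and 805 CPM in KOCKD. In KOCKD + RNLS it was at 0.325, 0.661 and 0.749 CPM, from 4 to 8 counts in each library. So 2 of 3 WTCKD hearts were high and 1 was near 0, KOCKD held both a low heart and the highest of all, and only in KOCKD + RNLS were the 3 hearts alike. By group medians the order was WTCKD, WTSHAM, KOCKD, WTCKD + RNLS and KOCKD + RNLS. The ranges of neighbours in this order overlapped, except that KOCKD + RNLS ended at 8 counts where WTCKD + RNLS began at 9, which is within counting error. Between the lowest and the highest heart the level differed 2477-fold.

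Myl4, the atrial essential light chain, was at 15.8, 95.4 and 355 CPM in WTSHAM, at 395, 551 and 2.47 CPM in WTCKD and at 7.76, 2.97 and 116 CPM in WTCKD + RNLS. It was at 64.5, 8.38 and 773 CPM in KOCKD and at 1.30, 2.15 and 1.59 CPM in KOCKD + RNLS. The same hearts were high and low as for Myl7, over a 595-fold range.

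Sln was at 0.917, 15.4 and 72.7 CPM in WTSHAM, at 76.0, 106 and 0.255 CPM in WTCKD and at 1.83, 0.0928 and 13.6 CPM in WTCKD + RNLS. It was at 9.88, 0.279 and 133 CPM in KOCKD. In KOCKD + RNLS the 3 libraries held 1, 0 and 1 counts of Sln, which is under the limit given above. Over all hearts, 6 libraries had 3 counts or fewer and KOCKD replicate 3 had 1652.

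Nppa did not fall to 0 in any heart. It was at 118.5, 239 and 408 CPM in WTSHAM, at 363, 1172 and 80.6 CPM in WTCKD and at 105, 117 and 231 CPM in WTCKD + RNLS. It was at 313, 103 and 936 CPM in KOCKD and at 149, 284 and 126 CPM in KOCKD + RNLS. The highest heart was 14.5-fold above the lowest, and the ranges of all 10 pairs of groups overlapped.

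Bmp10 was close to absent in all hearts but one. WTCKD replicate 2 held 261 counts (23.9 CPM) and WTCKD + RNLS replicate 1 held 12 (1.0 CPM). The other 13 libraries had 3 counts or fewer, and 7 of them had 0, among them WTCKD replicate 1 and WTSHAM replicate 3, which were high in Myl7. KOCKD replicate 3, the heart with the most Myl7, held 1 count of Bmp10. Of the 5 atrial genes, Sln, Myl4 and Myl7 were thus high and low in the same hearts, Nppa was so in part and Bmp10 was not.

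**Figure D1:**
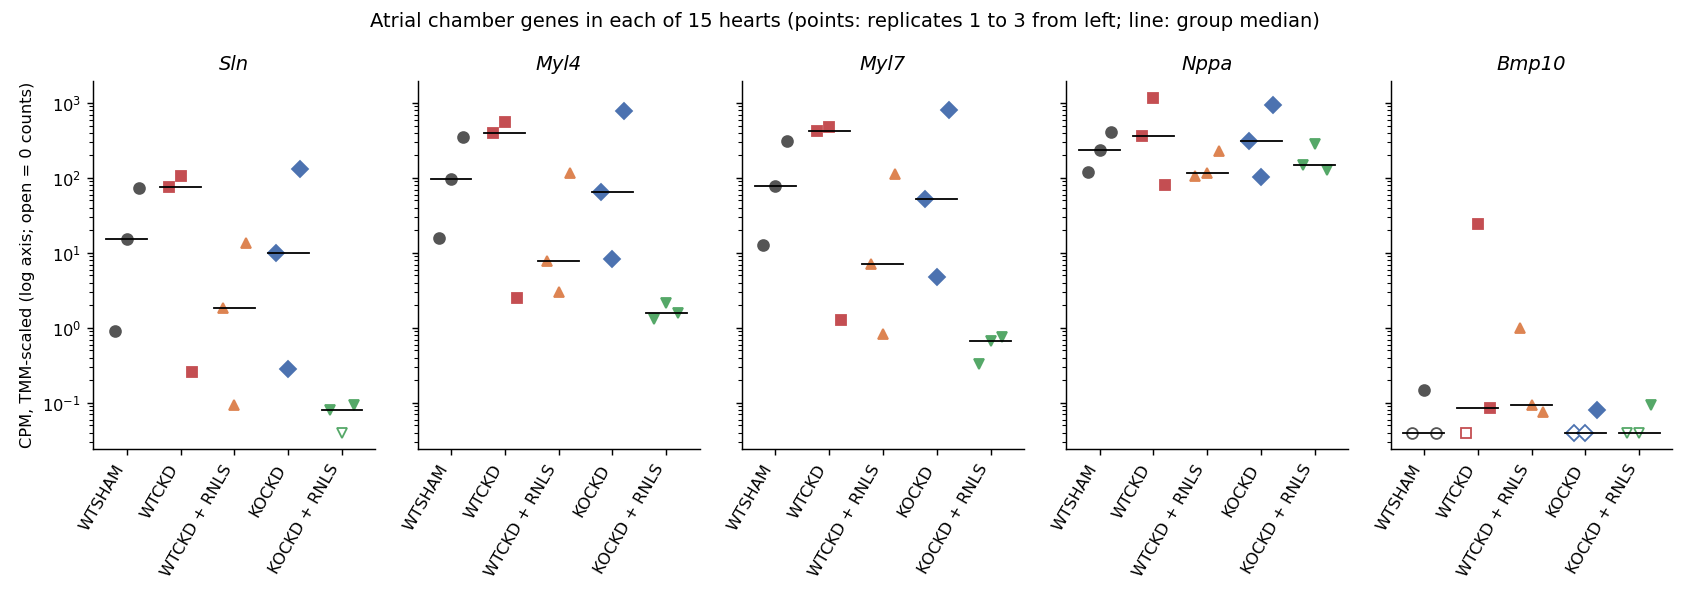
CPM of Sln, Myl4, Myl7, Nppa and Bmp10 (log axis) in the 5 groups, with 1 point for each of the 3 hearts (replicates 1 to 3 from left), a line at the group median and open points at 0 counts. Sln, Myl4 and Myl7 span 92.2-fold or more within WTCKD and KOCKD, KOCKD + RNLS is low in all 3 hearts, and Nppa stays at 80.6 CPM or higher.

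On the log2 scale, the pooled standard deviation (SD) within groups was 3.31 for Sln, 3.27 for Myl7, 2.89 for Myl4, 1.90 for Bmp10 and 1.25 for Nppa, where the median gene that passed the filter had 0.176. Sln, Myl7 and Myl4 ranked 1, 2 and 4 by this SD among 13021 genes and Nppa ranked 69. Rank 3 was held by Mybphl, an atrial sarcomere gene that is no member. Of the variance over all 15 hearts, the groups held 47.8% for Myl7, 45.7% for Myl4, 40.9% for Sln, 26.6% for Bmp10 and 17.1% for Nppa. The remainder lay between hearts of the same group. With 5 groups of 3 hearts, the groups hold a part of the variance even where they do not differ, so these shares are descriptions. The estimated biological coefficient of variation was 1.33 for Sln, 1.24 for Myl7, 1.14 for Myl4 and 0.625 for Nppa, against a common value of 0.132.

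Against their ventricular counterparts, the atrial light chains made up very different shares. By FPKM, which divides by gene length, Myl7 stood at 0.0122% of Myl2 in KOCKD + RNLS replicate 1 and at 25.0% in KOCKD replicate 3. It stood at 0.531%, 3.22% and 13.8% in the 3 WTSHAM hearts, at 14.3%, 17.6% and 0.0427% in WTCKD and at 0.243%, 0.0232% and 4.11% in WTCKD + RNLS. Myl4 stood at 0.00121% to 0.678% of Myl3 by FPKM, and Sln at 0% to 7.76% of Pln, the gene of phospholamban. Myl2 itself varied 1.60-fold over the 15 hearts, Myl3 1.45-fold and Pln 1.29-fold in CPM. In KOCKD replicate 3 the FPKM was 1388 for Myl7, 1108 for Nppa, 260 for Sln and 48.2 for Myl4. In CPM, Myl7 was at 805 and Myl4 at 773 there, so their gap in FPKM lies in the gene lengths used. Those lengths are not given in the sources used here, and exon bases of 590 and 4637 do not account for the whole gap. The low FPKM of Myl4 beside Myl3 depends on this length too, so it is not read as a share. In bulk tissue, fewer atrial cells in a sample and less of this RNA per atrial cell cannot be told apart.

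Across the 15 hearts, with each value taken as its difference from the group mean of log2 CPM, Myl4 and Myl7 had a Pearson r of 0.993 (Spearman 0.982). Sln had 0.980 with Myl4 and 0.982 with Myl7. Nppa had 0.918 with Myl4, 0.890 with Sln and 0.885 with Myl7, while Bmp10 had 0.300 to 0.494 with the other members. Without WTCKD replicate 2 and KOCKD replicate 3, the 2 hearts farthest from the median of the members' mean, r among Sln, Myl4 and Myl7 was 0.972 to 0.991 and Nppa had 0.868 to 0.912 with them. Bmp10 then had -0.0967 to -0.348. Over all 15 hearts without centring on group means, Nppa had 0.782 to 0.817 with Sln, Myl4 and Myl7 (Spearman 0.664 to 0.693). These values are descriptions over hearts that share a library and a scaling between genes. The mean of the members had an r of 0.108 with the depth of the library.

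In the 7 hearts with Myl7 over 50 CPM, the 3 chamber genes kept close to fixed ratios. These were WTSHAM replicates 2 and 3, WTCKD replicates 1 and 2, WTCKD + RNLS replicate 3 and KOCKD replicates 1 and 3. Per 100 CPM of Myl7 they held 94.2 to 123 CPM of Myl4, 12.1 to 23.4 CPM of Sln and 9.06 to 16.6 CPM of Mybphl. Nppa ranged from 86.5 to 589 CPM per 100 CPM of Myl7 in the same hearts. In the 8 hearts with less Myl7, Nppa was at 80.6 to 284 CPM with a median of 118 CPM, beside 231 to 1172 CPM with a median of 363 CPM in the 7. The highest of the 8 was KOCKD + RNLS replicate 2, where Myl7 was at 0.661 CPM and Myh7, the myosin heavy chain that ventricles express again under load, was at 2071 CPM, its highest level in the series. In KOCKD + RNLS replicates 1 and 3, Myh7 was at 1107 and 948 CPM. Nppb, another gene that responds to load in ventricles, was at 155 CPM in KOCKD + RNLS replicate 2. Nppb was highest, at 264 CPM, in KOCKD replicate 2, where Nppa was at 103 CPM and Myh7 at 134 CPM, its lowest level. A part of load in these levels was not tested.

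**Figure D2:**
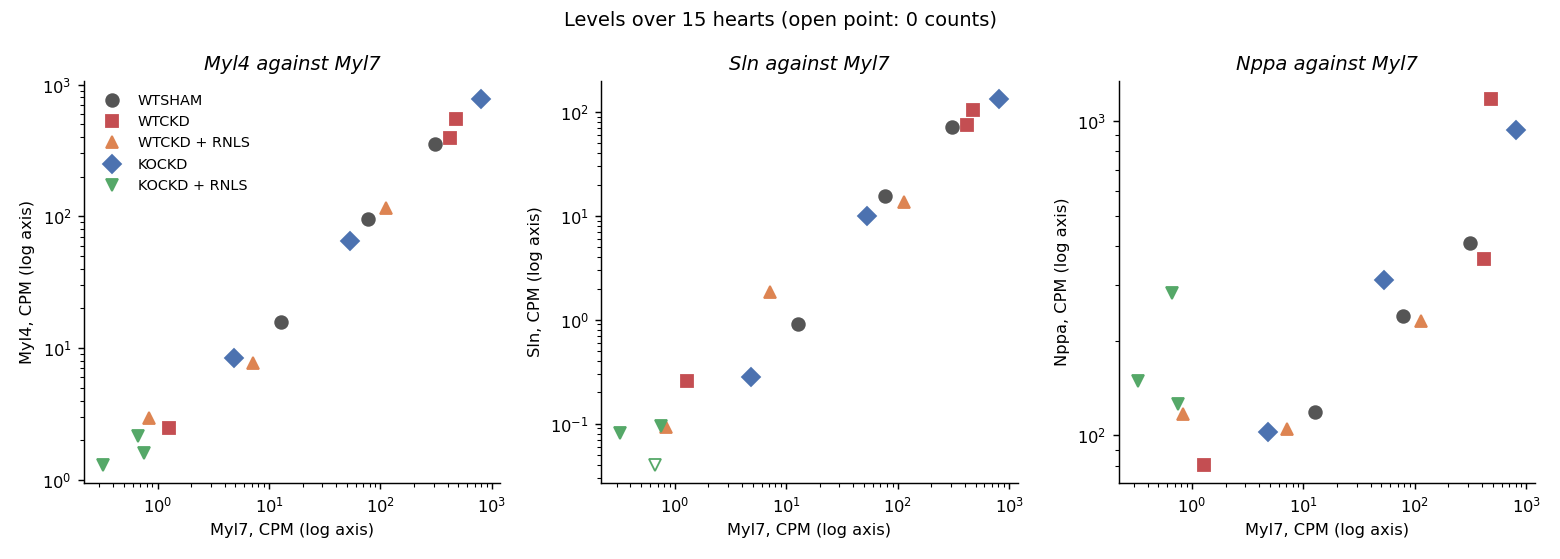
Myl4, Sln and Nppa against Myl7 in CPM (log axes), 1 point per heart, coloured and shaped by group, with an open point at 0 counts of Sln. Myl4 and Sln rise with Myl7, less closely at its lowest levels, and Sln is at 3 counts or fewer in 6 hearts. Nppa lies between 80.6 and 284 CPM in the 8 hearts with Myl7 under 50 CPM.

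Between WTCKD and WTSHAM, and between KOCKD and WTCKD, the differences of the 4 tested members are given with standard errors as a description. Each was under its standard error, except that of Nppa between WTCKD and WTSHAM. This is no test, since the members were chosen on these values. On the log2 scale (with standard errors), Myl7 differed by 1.16 (1.51) between WTCKD and WTSHAM, Myl4 by 1.02 (1.43), Sln by 1.02 (1.33) and Nppa by 1.08 (0.77). Without WTCKD replicate 2 that of Nppa turned to -0.21. Between KOCKD and WTCKD the differences were -0.06 (1.49) for Myl7, -0.16 (1.41) for Myl4, -0.33 (1.31) for Sln and -0.26 (0.76) for Nppa. Without KOCKD replicate 3 they became -3.37 for Myl7 and -3.12 for Myl4, and without WTCKD replicate 2 that of Nppa became 1.02.

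The group means of Sln, Myl4, Myl7 and Nppa were lower with the virus in both genotypes. That of Bmp10 was lower in wild type, and in knockouts it rested on 1 count in each group. In wild type the ranges of the 2 groups overlapped for each member, and in knockouts those of Sln, Myl4 and Myl7 did not, as was so with lower values for 20% of all genes. WTCKD + RNLS stood below WTCKD by log2 differences of -2.87 (1.62) for Myl7, -2.89 (1.54) for Myl4, -3.48 (1.56) for Sln and -1.83 (0.79) for Nppa. These values rest on which hearts were used. Without WTCKD + RNLS replicate 3 they were -6.18 for Myl7 and -5.86 for Myl4, and without WTCKD replicate 2 that of Nppa was -0.54. KOCKD + RNLS stood below KOCKD by -8.95 (2.59) for Myl7, -7.38 (2.15) for Myl4 and -1.28 (0.78) for Nppa, and by -5.64 and -4.43 for Myl7 and Myl4 without KOCKD replicate 3. For Sln no fold is given, since KOCKD + RNLS held 2 counts in all. The virus comparison in knockout minus that in wild type was -6.08 (3.22) for Myl7, -4.49 (2.62) for Myl4 and 0.55 (1.09) for Nppa.

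A list of 16 other genes known from atrial working myocardium was followed beside the members, of which 15 passed the filter. A gene was called at an adjusted p under 0.05 by edgeR's quasi-likelihood test over all 13021 genes. Between WTCKD and WTSHAM none of the 15 was called (2.3% of all genes were), and 1 had an unadjusted p under 0.05 (17.6% of all genes). The median log2 difference of the list was 0.33, beside -0.0053 over all genes. Between WTCKD + RNLS and WTCKD 1 was called (4.47% of all genes), with a list median of -0.53 beside 0.0116. This was Pam, the enzyme that amidates peptide hormones and is packed with atrial natriuretic peptide in atrial granules. It was at 1382, 1742 and 883 CPM in WTCKD and at 656, 749 and 876 CPM in WTCKD + RNLS, a log2 difference of -0.81 ± 0.20 (SE, adjusted p = 0.0324, edgeR). The call held in 1 of 6 refits that each omitted a library. Otherwise its adjusted p ran from 0.0518 without WTCKD + RNLS replicate 3 to 0.18 without WTCKD replicate 2. The refit with the call was that without WTCKD replicate 3.

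Between KOCKD + RNLS and KOCKD also 1 of the 15 was called (16.1% of all genes), with a list median of -0.09 beside -0.0094. It was Kcnk3, the acid-sensitive background potassium channel TASK-1, at 375, 371 and 346 CPM in KOCKD and at 276, 292 and 316 CPM in KOCKD + RNLS. Its log2 difference was -0.30 ± 0.07 (SE, adjusted p = 0.0137, edgeR). The call was lost without KOCKD replicate 2 (adjusted p = 0.0632) and without KOCKD + RNLS replicate 1 or 2 (0.0727 and 0.066). Kcnk3 was also the 1 listed atrial gene with a negative r (-0.51) with the members. Without centring on group means its r was 0.249. Between KOCKD and WTCKD, and for the difference of the virus comparisons, 0 of the 15 and 0 of all genes were called by edgeR (0% in both). At an unadjusted p under 0.05 there were 7 of 15 in the first (10.1% of all genes) and 3 of 15 in the second (17.6%). DESeq2 called 9 genes of the 9176 to which it gave an adjusted p in the first, and 362 of 6519 in the second.

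The atrial score, the mean log2 CPM of the 5 members, gave a scale on which other genes could be placed by their r over the 15 hearts, again taken from group means. Of the 15 listed atrial genes, 6 had an r over 0.8, with a list median of 0.76. Among all 11723 genes compared, 95 (0.81%) had an r over 0.8 and the median was -0.0033. The 6 were Sbk3 (0.970), Mybphl (0.962), Dkk3 (0.934), Stard10 (0.896), Sbk2 (0.866) and Tbx5 (0.809), a T-box factor that also acts in the ventricles. Among the transcription factors of atrial identity in the list, Nr2f1 and Nr2f2, r was 0.352 and 0.425. Without centring on group means, r of the 6 ran from 0.509 for Tbx5 to 0.974 for Mybphl.

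Mybphl followed Myl7 most closely in level, at 0.667, 7.81 and 47.8 CPM in WTSHAM, 60.4, 79.3 and 0.255 CPM in WTCKD, 0.667, 0.278 and 12.8 CPM in WTCKD + RNLS, 4.81, 0.466 and 73.6 CPM in KOCKD, and 0.0812, 0.0827 and 0.656 CPM in KOCKD + RNLS. It was high in the same hearts as Myl7 and near its limit in the rest. Its log2 difference between KOCKD + RNLS and KOCKD was -6.63 ± 2.39 (SE) and did not pass the test (adjusted p = 0.0694, edgeR).

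Sbk3, a kinase gene, and Dkk3, a secreted protein of the Dickkopf family, departed from this pattern in several hearts. Sbk3 was at 34.7 and 69.1 CPM in the 2 high WTCKD hearts and at 0.510 CPM in the low one. In KOCKD it reached 14.7 CPM in replicate 3, where Myl7 was at 805 CPM, which is less than the 24.6 CPM in WTCKD + RNLS replicate 3, where Myl7 was at 113 CPM. In KOCKD + RNLS it was at 4.63, 6.94 and 8.62 CPM, while Myl7 was under 1 CPM. Dkk3 was at 28.3 CPM in KOCKD replicate 3 and at 177 CPM in WTCKD replicate 2. Per 100 CPM of Myl7, KOCKD replicate 3 held 1.82 CPM of Sbk3 and 3.51 CPM of Dkk3, the lowest among the 7 hearts with Myl7 over 50 CPM, in which the ranges were up to 21.8 and 84.4 CPM. Of the wild type hearts with less Myl7, 3 stood above both ranges. Per 100 CPM of Myl7, WTCKD + RNLS replicates 1 and 2 held 157 and 189 CPM of Sbk3 and 272 and 344 CPM of Dkk3. WTCKD replicate 3 held 40.0 and 227 CPM. WTSHAM replicate 1 and KOCKD replicate 2 stood above the range of Sbk3 only, at 30.7 and 25.0 CPM. The KOCKD + RNLS hearts held at least 1050 CPM of Sbk3 and 575 CPM of Dkk3. Myl7 was at 9 counts in WTCKD + RNLS replicate 2, 15 in WTCKD replicate 3 and 4 to 8 in KOCKD + RNLS, so ratios there are imprecise.

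**Figure D3:**
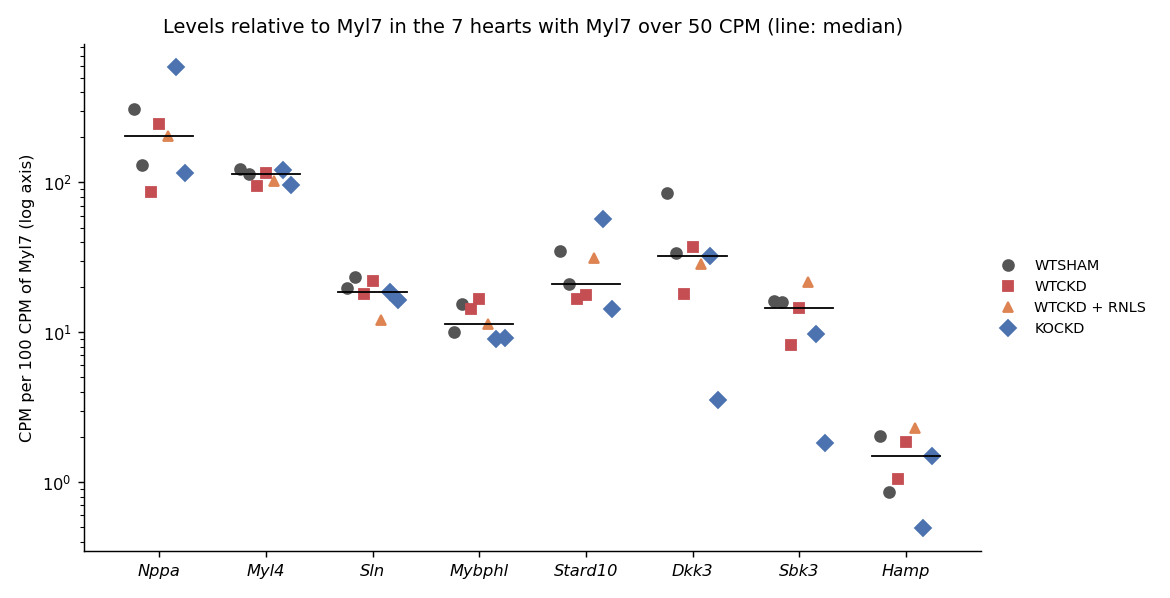
CPM of 8 genes per 100 CPM of Myl7 (log axis) in the 7 hearts with Myl7 over 50 CPM, 1 point per heart marked by group, with a line at the median. Myl4 (94.2 to 123), Sln and Mybphl lie in narrow bands, and Dkk3 and Sbk3 spread down to 3.51 and 1.82 in KOCKD replicate 3.

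Beyond the lists, the 10 genes with the highest r to the score were Sbk3, Itgb8 (0.967), Fgf12 (0.967), Hamp (0.964), Mybphl, Lmntd1 (0.958), Tmem163 (0.953), Ppp1r1b (0.944), Twsg1 (0.938) and Dkk3. Itgb8 encodes an integrin subunit that activates TGF-beta, and Fgf12 an intracellular modulator of sodium channels. Hamp encodes the iron hormone hepcidin and was at 0 to 12.1 CPM, with its highest level in KOCKD replicate 3 and 0 counts in all 3 KOCKD + RNLS hearts. Twsg1, which binds BMP ligands, changed little in level, from 82.1 to 118 CPM, but in step with the members once group means were taken out. Without the 2 hearts named above, r of these 10 was 0.937 to 0.980. Among the genes at the other end were Tsen34 (-0.923), Sgca (-0.911), Bcat2 (-0.911) and Anapc16 (-0.909), each within a narrow range of levels. Without centring, their r was -0.300, -0.599, -0.216 and -0.494 in that order. Sgca, a part of the sarcoglycan complex of the muscle membrane, was at 176 to 239 CPM.

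Of 6 listed genes of the sinoatrial node, the pacemaker at the border of the right atrium, 5 passed the filter. Hcn4, the pacemaker channel, had 0.921 and was at 10.8 to 39.4 CPM. Shox2, a transcription factor of the node, had 0.724. Tbx3, a repressor of the working myocardial programme, had 0.067, and it was the 1 node gene called between KOCKD + RNLS and KOCKD, where 7.04% of all genes were lower, with a log2 difference of -0.58 ± 0.19 (SE, adjusted p = 0.0471, edgeR). It was at 18.5, 23.2 and 27.9 CPM in KOCKD and at 18.1, 13.9 and 14.4 CPM in KOCKD + RNLS. The call was lost in 4 of 6 fits without 1 library, with adjusted p up to 0.176 without KOCKD replicate 3. In the other comparisons 0 of the 5 were called. Without centring on group means, r was 0.557 for Hcn4, 0.772 for Shox2 and 0.497 for Tbx3.

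Of 9 ventricular genes, all tested, the median r was -0.026. Myl3 had -0.838 and Myl2 -0.548, while Irx5, a homeobox gene, had 0.615. Without centring on group means these were -0.483, -0.234 and 0.0649. Irx4, a ventricular transcription factor, was the 1 gene called, and it was higher with the virus in both genotypes, as were 2.19% of all genes in wild type and 9.05% in knockouts. It was at 43.7, 47.3 and 46.5 CPM in WTCKD and at 64.6, 57.2 and 63.9 CPM in WTCKD + RNLS, a log2 difference of 0.43 ± 0.09 (SE, adjusted p = 0.00981, edgeR) that kept its call without any 1 library. In knockouts the difference was 0.32 ± 0.08 (SE, adjusted p = 0.0206), lost in 4 of 6 such fits with adjusted p up to 0.0838 without KOCKD + RNLS replicate 3. The r of Irx4 with the score was -0.026, or -0.545 without centring.

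Of 10 genes shared by all cardiomyocytes, 2 were higher in WTCKD + RNLS than in WTCKD (2.19% of all genes) and in knockouts 3 were higher (9.05%) and 1 lower (7.04%), with medians of 0.24 and -0.02. Ttn, the giant spring of the sarcomere, rose by log2 differences of 0.60 ± 0.12 (SE, adjusted p = 0.00912) in wild type and 0.59 ± 0.12 (adjusted p = 0.00477) in knockouts. Myh6 rose by 0.52 ± 0.08 (adjusted p = 0.00217, edgeR) in knockouts. These 3 calls were kept without any 1 library. Ryr2, the calcium release channel, rose by 0.34 ± 0.09 (adjusted p = 0.0182) in knockouts, and this call was lost in 3 of 6 such fits, with adjusted p up to 0.084 without KOCKD replicate 2. Nkx2-5, a homeobox factor of the cardiac programme, was called higher in wild type (0.37 ± 0.09, adjusted p = 0.0279, edgeR) and lower in knockouts (-0.29 ± 0.09, adjusted p = 0.041). Its calls were lost in 4 and in all of 6 such fits, with adjusted p up to 0.112 without WTCKD replicate 2 and 0.168 without KOCKD replicate 2. The summed level of the list had an r of -0.725 with the score.

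Genes of the pathways of single members had correlations with the score near 0 at the median. Of 8 other genes of the natriuretic peptide system, 7 were tested with a median r of 0.016. Nppb, which encodes the brain natriuretic peptide and responds to load in ventricles, had -0.017 and was at 76.2 to 264 CPM. Nppa stood at 0.390 to 7.22 times Nppb in CPM. Npr2, the receptor of C-type natriuretic peptide, was higher in KOCKD + RNLS than in KOCKD by 0.27 ± 0.08 (SE, adjusted p = 0.0319, edgeR), at 80.5, 69.9 and 73.5 against 89.2, 92.9 and 87.7 CPM. In that comparison 9.05% of all genes were called higher, and Npr2 was the 1 of the 7 called in any comparison. The call was lost in 5 of 6 fits without 1 library, with adjusted p up to 0.123 without KOCKD replicate 2. Corin, the protease that activates the Nppa product in atria and ventricles, was at 214 to 370 CPM and had -0.027. Of the 6 genes of SERCA and its regulators, 0 were called in any comparison, with a median r of -0.013. At an unadjusted p under 0.05 there were 3 of 6 between WTCKD + RNLS and WTCKD (20.2% of all genes) and 2 of 6 between KOCKD + RNLS and KOCKD (31.6%). Atp2a2, which encodes SERCA2, was at 15424 to 21357 CPM.

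For BMP10, 14 genes of receptors, ligand partners, SMADs and targets were followed and 13 tested, with a median r of -0.052. Bmpr1a was lower in WTCKD than in WTSHAM (-0.37 ± 0.08, SE, adjusted p = 0.022, edgeR; 1.7% of all genes were lower), and higher in WTCKD + RNLS than in WTCKD (0.34 ± 0.08, adjusted p = 0.0218) and in KOCKD + RNLS than in KOCKD (0.30 ± 0.08, adjusted p = 0.0205). It was at 108, 104 and 115 CPM in WTSHAM, at 90.4, 81.6 and 81.6 CPM in WTCKD and at 108, 97.0 and 117 CPM in WTCKD + RNLS. The first 2 of these comparisons share the WTCKD hearts. The calls were lost in 3, 4 and 4 of 6 fits without 1 library, with adjusted p up to 0.0962 without WTCKD replicate 3, 0.0909 without WTCKD + RNLS replicate 3 and 0.0715 without KOCKD + RNLS replicate 2. With the virus, 1 of the 13 was called higher in wild type (2.19% of all genes) and 3 in knockouts (9.05% of all genes). Bmpr2, a type II receptor of BMP10, rose in knockouts by 0.58 ± 0.10 (adjusted p = 0.00229) and kept its call without any 1 library. Acvr2a rose there by 0.32 ± 0.09 (adjusted p = 0.0264), lost in 4 of 6 such fits with adjusted p up to 0.121 without KOCKD + RNLS replicate 1. Acvrl1, Eng and Id3, the endothelial receptor, its co-receptor and a target, had r of -0.638, -0.664 and -0.634. Without centring on group means these were -0.221, -0.189 and -0.230. Gdf2, which encodes the related ligand BMP9, had 0 counts in 10 of 15 hearts.

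**Figure D4:**
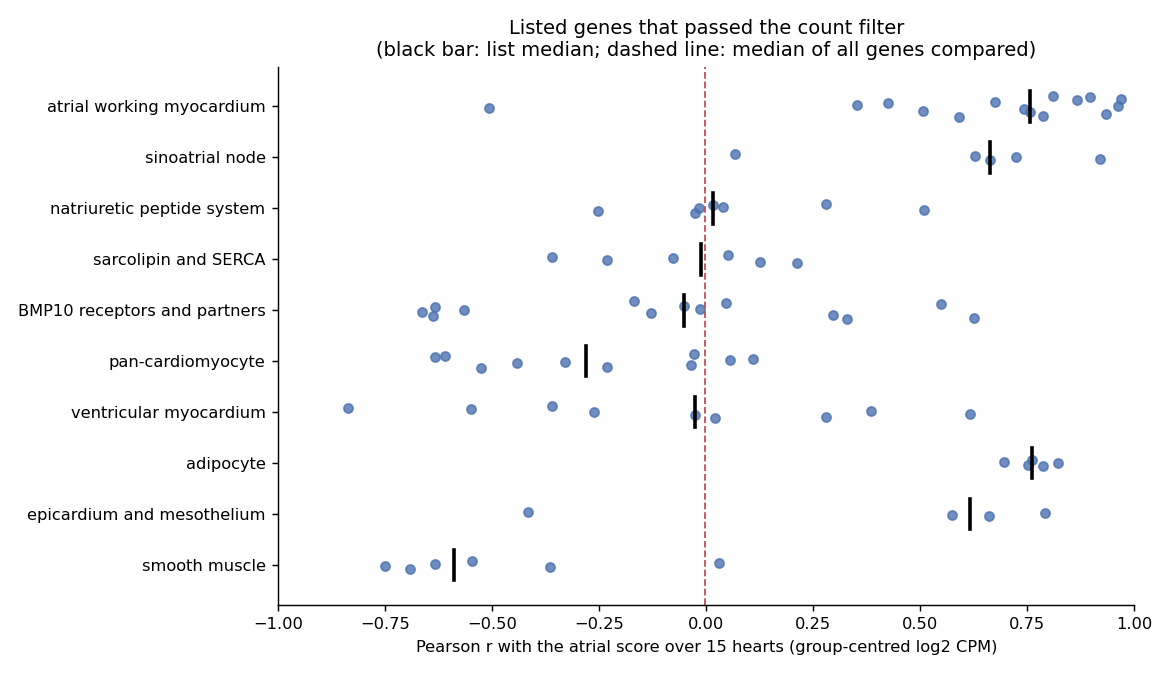
Pearson r with the atrial score over 15 hearts (group-centred log2 CPM), 1 point for each listed gene that passed the count filter, with a black bar at the list median and a dashed line at the median of all genes compared. Atrial genes have a median of 0.76, the medians of node, adipocyte and mesothelial genes also lie to the right, and those of the other lists plotted lie near 0 or to the left. Lists with 1 tested gene, such as nerve, are not plotted.

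Some genes of adipocytes and mesothelium, and 1 of nerve, moved with the members. Of 7 adipocyte genes, 5 passed the filter and had a median r of 0.76. The summed level of the 7 was at 3.50 to 28.2 CPM in WTSHAM, 0.0850 to 18.4 CPM in WTCKD, 0.334 to 2.76 CPM in WTCKD + RNLS, 0 to 24.9 CPM in KOCKD and 0 to 9.67 CPM in KOCKD + RNLS. Adipoq, which encodes adiponectin, had 0 counts in 5 hearts, and Ucp1 had 0 in 13. Of 8 genes of epicardium and mesothelium, the sheet that covers the heart, 4 were tested with a median r of 0.62, although Wt1 had -0.416. The sum of the 8 ran from 9.93 CPM in KOCKD + RNLS to 35.9 CPM in WTCKD. Upk3b, a mesothelial marker, was at 2.53, 8.44 and 0.0850 CPM in WTCKD and at 0.0834, 0 and 0 CPM in WTCKD + RNLS (adjusted p = 0.0395, edgeR). The call was lost in 5 of 6 fits without 1 library, with adjusted p up to 0.196 without WTCKD replicate 2. Dbh, of noradrenergic nerves, had an r of 0.840, or 0.296 without centring on group means, and was the 1 tested gene of 8 listed for cardiac ganglion and nerve, whose sum was at 1.62 to 9.01 CPM. Genes of that list below the filter had r of -0.458 to 0.771. Th, which encodes the first enzyme of noradrenaline synthesis, was at 0 in 14 hearts.

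The sum of 6 smooth muscle genes ran the other way, with an r of -0.794 and a range of 2818 to 3828 CPM, most of it Des, the intermediate filament desmin, which cardiomyocytes also express and which was at 2487 to 3302 CPM. Of the others, Acta2 had an r of -0.692, Myh11 -0.634, Tagln -0.547, Cnn1 -0.366 and Smtn 0.031. Without centring on group means these were -0.465, -0.450, -0.124, -0.0123 and -0.298. Genes of erythrocytes (r of the sum 0.021), skeletal muscle (-0.179), lung (-0.158) and T and B cells (0.50) were also followed. Sums of erythrocyte genes were at 38.02 to 107 CPM in WTCKD and at 217 to 527 CPM in WTCKD + RNLS, and Hbb-bs, a globin, was called higher in the latter by 2.72 ± 0.75 (SE, adjusted p = 0.0494, edgeR). That call was lost in each of the 6 fits without 1 library, with adjusted p up to 0.176 without WTCKD replicate 1. Lung genes summed to 1.25 CPM at most and Sftpc was at 0 in 14 hearts. Skeletal muscle genes summed to 82.9 to 1741 CPM, most of it Acta1, which alone was at 79.4 to 1739 CPM. Of the other genes of that list, Tnni2 reached the highest level, 3.16 CPM. Myh1, Myh2 and Myh4 reached 0.175, 0.0875 and 0.0834 CPM. T and B cell genes summed to 7.81 CPM at most. The part of these tissues in the members' levels was not tested.

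The number of genes called changed when the members' levels entered the model. The atrial score was at 2.42 to 5.81 in WTSHAM, 1.01 to 7.90 in WTCKD, 0.930 to 4.66 in WTCKD + RNLS, 1.67 to 6.83 in KOCKD and 0.434 to 0.788 in KOCKD + RNLS, so it did not overlap between the knockout groups. When it was added to the model as a term, edgeR called 494 in place of 299 genes between WTCKD and WTSHAM, 549 in place of 582 between WTCKD + RNLS and WTCKD, and 2626 in place of 2095 between KOCKD + RNLS and KOCKD. Between KOCKD and WTCKD it called 3 in place of 0. For the difference of the virus comparisons it called 136 in place of 0, and 342 with the mean of Sln, Myl4 and Myl7 as the term. Without the score in the model, the log2 difference of Sbk3 between KOCKD + RNLS and KOCKD was -0.09 ± 1.18 (SE, adjusted p = 0.965, edgeR). With it the difference was 3.94 ± 0.50 (SE). For the latter no p is given, since Sbk3 was the gene with the highest r with this same score. As the score separates these 2 groups, the values with it rest on an extrapolation from the other hearts. The same holds for the genes called with either score in the difference of the virus comparisons, which uses these 2 groups. In all comparisons the numbers called with a score are descriptions. Each score was made from members chosen on these values, and the members that passed the filter were among the genes tested.

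**Figure D5:**
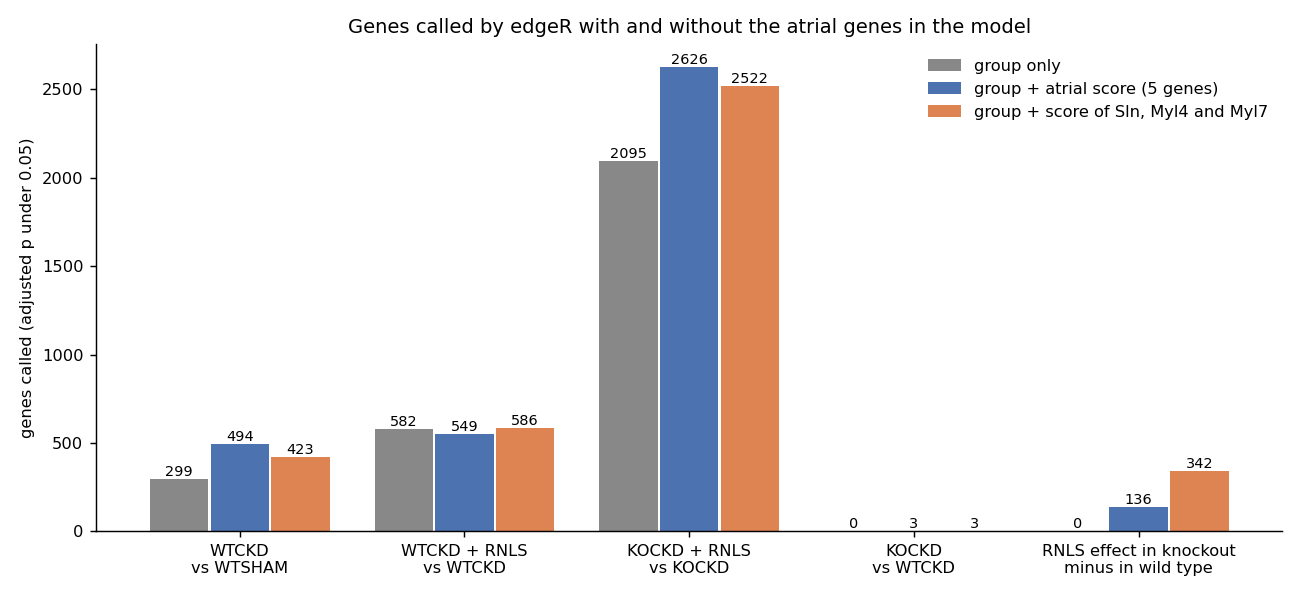
Number of genes called by edgeR (adjusted p under 0.05, bars from 0) in 5 comparisons with only the group in the model, with the atrial score added, and with the score of Sln, Myl4 and Myl7 added. The number for the difference of the virus comparisons goes from 0 to 136 and 342, and that between KOCKD + RNLS and KOCKD from 2095 to 2626 and 2522.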

How the data were processed

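RNA-seq libraries of 15 mouse hearts, 3 in each of 5 groups, were analysed. The authors trimmed reads with Trimmomatic, mapped them with hisat2, used htseq-count for the reads of each gene, and deposited these counts unnormalized. They also deposited FPKM per library. These equalled the counts over a fixed gene length and the library total for the 9650 genes with at least 50 counts in every library, within 1%. The methods name mm9 and the submitters' processing notes GRCm39. The annotation, the tool versions and the strand option of the counting are not given in the sources used here, and the kit was stranded. The methods name 2 sequencer models, and which of them a library ran on is not given in the sources used here.

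Samples were grouped by their labels, all columns were mapped, and each library was taken as the heart of 1 mouse. The labels do not state this, so p-values measure the spread between these samples. Library totals were 10480788 to 13424078 counts. Counts were tested with edgeR 4.0.16 in R 4.3.3 (TMM scaling, filterByExpr with a minimum of 10 counts and 15 in total, quasi-likelihood fit over all 15 libraries with the group as the only term, two-sided, Benjamini-Hochberg over 13021 genes). Standard errors of edgeR differences are the absolute log2 difference over the square root of the F statistic of the test. For log2 CPM a prior count of 2 was added. Tables and plots were made in Python 3.11.15 (pandas 2.3.3, numpy 2.4.6, matplotlib 3.10.9). Alternatives were DESeq2 1.42.0, RLE factors, no filter, a block for the replicate number, fits to the compared libraries alone, leaving out each library, a prior count of 0.5, FPKM with a pseudocount of 0.1, and the atrial score as a term. A score without Nppa and Bmp10 was added after the values were seen. The code was tested on simulated counts.

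The members, the gene lists and the 6 motifs were chosen with earlier results of these data known. Named genes were the members, the listed genes, and the 10 genes with the highest and 5 with the lowest r with the atrial score among those with an average log2 CPM over 1. Some of these genes are not reported here, but counts and medians over the lists include them. Fold changes and p-values of the authors' own comparisons were not used.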

Additional observations from a re-analysis of the deposited data

Results flagged for a closer look

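For 2 listed genes, the hearts with the virus all lay above those without it in 1 genotype and all below in the other. They were picked from these data, and the share of all genes with this pattern was not counted. Between the knockout groups alone, 20% of all genes had ranges that did not overlap and were lower with the virus. Nkx2-5, a homeobox factor of all cardiomyocytes, was at 66.6, 60.01 and 57.9 CPM in WTCKD and at 71.8, 87.2 and 79.5 CPM in WTCKD + RNLS, with a ratio of group medians of 1.325. In knockouts it was at 76.5, 83.6 and 76.1 CPM in KOCKD and at 59.9, 65.6 and 68.4 CPM in KOCKD + RNLS. The test of the difference itself gave -0.66 ± 0.13 on the log2 scale (SE, adjusted p = 0.105, edgeR), so Nkx2-5 was not called. With the atrial score in the model the estimate was -0.65 ± 0.13 (SE). That value rests on an extrapolation, since the score does not overlap between the knockout groups, and no p is given for it.

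Smad1, which carries BMP signals to the nucleus, was at 15.2, 20.8 and 16.5 CPM in WTCKD and at 14.8, 14.6 and 14.01 CPM in WTCKD + RNLS, with a ratio of group medians of 0.8832, and at 14.5, 16.3 and 12.6 CPM in KOCKD and 17.5, 17.0 and 16.7 CPM in KOCKD + RNLS. It passed the test in neither genotype, with log2 differences of -0.28 ± 0.14 (SE, adjusted p = 0.267, edgeR) in wild type and 0.24 ± 0.14 (adjusted p = 0.246) in knockouts. The test of the difference gave 0.51 ± 0.19 (SE, adjusted p = 0.198, edgeR).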

How the results depend on the processing

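The number of genes called changed with the model. Between WTCKD and WTSHAM it was 299, with 494 with the atrial score, 99 with only the libraries of the comparison and 568 with DESeq2. Between WTCKD + RNLS and WTCKD it was 582, with 380 with only the libraries of the comparison. Between KOCKD and WTCKD it was 0, with 4 with RLE factors, 5 without the filter, 1 with the replicate block, 3 with either score, 2 with only the libraries of the comparison and 9 with DESeq2. For the difference of the virus comparisons it was 0, with 136 and 342 with the scores and 362 with DESeq2, which gave 6519 genes an adjusted p. Leaving out 1 library gave 136 to 380, 209 to 761, 862 to 1476, 0 to 3 and 0 to 2 genes in the 5 comparisons, listed as WTCKD over WTSHAM, WTCKD + RNLS over WTCKD, KOCKD + RNLS over KOCKD, KOCKD over WTCKD, and the difference of the virus comparisons.

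The median log2 difference of the 4 tested members was 1.05, -2.88, -8.17, -0.21 and -5.24 in that order, and without 1 library 0.34 to 2.61, -5.88 to -2.29, -8.74 to -5.03, -3.24 to 0.48 and -5.87 to -2.14. The last median rests in part on Sln, which had at most 1 count in a KOCKD + RNLS heart. In that comparison Nppa went the other way, at 0.55. For the median r between pairs of members, 0.887, this range was 0.815 to 0.922. Same-numbered samples did not deviate together (r of -0.360 to 0.232 over 12 pairs), and with the replicate block the medians were 2.64, -5.01, -7.33, -2.29 and -2.30, while 253, 522, 1909, 1 and 0 genes were called. Depth limits Bmp10, at or under 3 counts in 13 hearts, and Sln, at or under 3 counts in 6.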
